A study of Mus with 9 samples.

Results

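The genes described here encode the proteins of the cytosolic ribosome, and were followed in RNA sequencing counts of mouse bone marrow from 3 groups of 3 libraries. The naming rule uses no measured value, though the family was picked with earlier results of these data known: protein-coding genes called Rpl or Rps with a digit, together with Rplp0, Rplp1, Rplp2 and Rpsa, leaving out the S6 kinase genes (Rps6k) and names that mark a pseudogene. This gave 86 of the 54532 genes in the count table, of which 84 had enough reads to be tested. The 84 tested genes were 50 of the large subunit, 33 of the small subunit, and Rps19bp1, which encodes a binding partner of Rps19 and not a subunit but has a name that the rule takes. Fau, which encodes Rps30 fused to a ubiquitin-like domain, has another name and is given with the other translation genes.

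The marrow came from lethally irradiated C57BL/6 mice injected, along with supportive cells, with fetal liver cells of embryonic day 12.5. In all 3 groups the injected cells carried a conditional knock-in of AML1-ETO, the fusion of RUNX1 and RUNX1T1 found in acute myeloid leukaemia, tagged with mCherry, and they had been infected with the retrovirus MSCV-IRES-EGFP. The retrovirus held cyclin D2 with threonine 280 changed to alanine (Thr280Ala) in CCND2mut, unmodified cyclin D2 in CCND2wt, and no insert in Vec. Cyclin D2 binds CDK4 and CDK6 and promotes entry into S phase. The design text does not say that the marrow was sorted again for mCherry or EGFP, so that cells of the host and of the supportive graft may be present. Nor is it stated whether each group's 3 libraries come from separate mice. The p-values therefore measure only the spread between these libraries, which may be technical.

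The cytosolic ribosome joins a small subunit, which reads the mRNA, to a large subunit, which forms the peptide bond, and each ribosomal protein is built once, or for the stalk proteins Rplp1 and Rplp2 in more copies, into every ribosome. The mRNAs of these proteins begin with a terminal oligopyrimidine (TOP) tract, through which mTORC1 and LARP1 control their translation and stability. Red cell precursors are known to be sensitive to a shortage of ribosomal proteins: heterozygous loss of RPS19 and of other members causes Diamond-Blackfan anaemia in humans. In what follows CPM is the count scaled to library size and TMM factor, RPKM is CPM per kilobase of the deposited gene length, fold changes are log2 values from edgeR with their standard error (SE), and "called" means a Benjamini-Hochberg adjusted p under 0.05 over all 15660 tested genes. In bulk marrow, fewer cells of a type and less RNA per cell cannot be told apart.

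Total counts were 15043755 to 17593634 per library. Ccnd2, the gene named by the labels, was checked first, and its counts were lowest where the label names the unmodified transgene: it had 12.6, 58.2 and 51.1 CPM in the libraries labelled CCND2mut, 7.30, 9.29 and 11.1 CPM in those labelled CCND2wt, and 76.2, 79.0 and 86.2 CPM in those labelled Vec. Every direction below is one between libraries so labelled, and the species of the transgene is not given in the sources used here. All 4 general leukocyte markers listed had reads in each group, summing to 1678 to 2683 CPM in CCND2mut, 1046 to 1078 CPM in CCND2wt and 1728 to 2075 CPM in Vec. The CCND2wt libraries lay closest to one another, where the chi-square comparing the counts of a pair averaged 6.998 to 17.7 per gene over all genes and 33.1 to 40.3 over the ribosomal protein genes. Pairs within the other groups had 53.3 to 148.3 over all genes and 62.5 to 131.6 over the ribosomal protein genes.

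Ribosomal protein transcripts made up a larger share of the counts in CCND2mut than in the other groups. The share was 7.957, 8.096 and 7.682% in CCND2mut, 5.563, 5.703 and 5.597% in CCND2wt, and 5.934, 6.469 and 5.825% in Vec. The groups did not overlap, with CCND2mut highest and CCND2wt lowest. As summed CPM the genes stood at 83400 ± 6996 in CCND2mut, 52541 ± 1794 in CCND2wt and 62229 ± 5823 in Vec (SD, n = 3 each). Both subunits showed the same order of means, which no test was applied to: large subunit genes summed to 47503 ± 3826 CPM in CCND2mut, 29396 ± 1054 CPM in CCND2wt and 34241 ± 3221 CPM in Vec. Small subunit genes summed to 35865 ± 3208 CPM in CCND2mut, 23131 ± 740.6 CPM in CCND2wt and 27976 ± 2602 CPM in Vec. The ratio of large to small subunit counts was 1.300, 1.324 and 1.353 in CCND2mut, 1.269, 1.276 and 1.267 in CCND2wt, and 1.227, 1.225 and 1.219 in Vec. These ratios did not overlap between groups either, and both CCND2 groups lay above Vec. The median gene did not show this order for CCND2mut. Its log2 fold change against Vec was 0.37 in the large and 0.40 in the small subunit, and against CCND2wt 0.64 and 0.68. The part of single abundant genes in the ratio, such as Rpl8 and Rpl32 described below, was not tested.

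**Figure D1:**
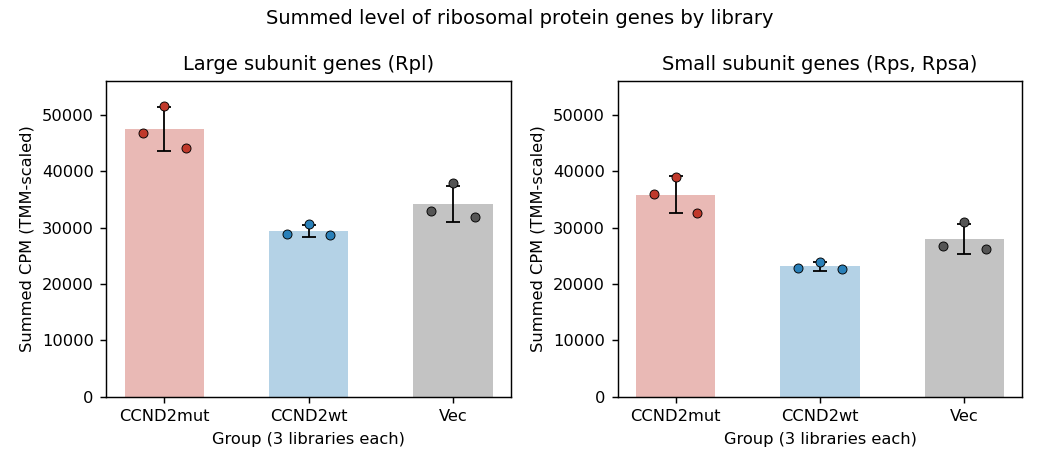
Summed CPM (TMM-scaled) of the large subunit genes (left) and small subunit genes (right) in each library of CCND2mut, CCND2wt and Vec. Bars are means of 3 libraries, error bars are SD and points are libraries; in both panels the CCND2mut libraries lie highest and the CCND2wt libraries lowest.

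Markers of several blood cell types also differed between the groups. The summed level of 7 monocyte and macrophage markers was 1504 to 4411 CPM in CCND2mut, 34.2 to 35.5 CPM in CCND2wt and 34.7 to 319 CPM in Vec, and that of 5 promyelocyte markers was 4999 to 10470 CPM in CCND2mut, 2503 to 2687 CPM in CCND2wt and 1360 to 1893 CPM in Vec. Stem and progenitor markers (6 genes) summed to 209.9 to 601 CPM in CCND2mut, 2011 to 2107 CPM in CCND2wt and 1491 to 1969 CPM in Vec, and mast cell markers (8 genes) to 1490 to 11290 CPM in CCND2mut, 17090 to 17600 CPM in CCND2wt and 7681 to 10500 CPM in Vec. Erythroid markers (10 genes) spanned 35.7 to 300.4 CPM in CCND2mut, 1086 to 1303 CPM in CCND2wt and 145 to 17100 CPM in Vec, and neutrophil markers (9 genes) 3098 to 18940 CPM in CCND2mut, 139.9 to 250.4 CPM in CCND2wt and 481.1 to 14320 CPM in Vec. A sum rests on its most abundant genes, and single markers did not all follow it. In CCND2wt against Vec, 2 of the 5 promyelocyte markers were above 0 and 3 below (1 called higher, 1 lower, median -1.86). Of the 6 stem and progenitor markers, 3 were above 0 and 3 below in that comparison (0 called higher, 1 lower, median -0.21). In CCND2mut against Vec, 5 of the 8 mast cell markers were above 0 and 3 below (2 called higher, 0 lower, median 0.32). There, 4 of the 7 monocyte and macrophage markers were above 0 and 3 below (3 called higher, 0 lower). Of the 9 neutrophil markers, 6 were above 0 and 3 below in the same comparison (1 called higher, 0 lower). Each marker of these lists had reads in each group, and their part in the ribosomal protein levels was not tested. In CCND2mut 1, 2 and 3 the ribosomal protein genes summed to 82738, 90703 and 76758 CPM. Neutrophil markers there summed to 18940, 3098 and 4001 CPM, and stem and progenitor markers to 528.9, 601 and 209.9 CPM. In Vec 1, 2 and 4 the ribosomal protein genes summed to 59674, 68893 and 58121 CPM. Erythroid markers there summed to 17100, 145 and 3844 CPM, and stem and progenitor markers to 1491, 1969 and 1868 CPM. No relation between these sums was tested.

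The members covered a wide range of levels. Of the 84 tested genes, 74 averaged 200 CPM or more over the 9 libraries and 10 under 100 CPM. Per length, the median member stood at 381 RPKM. The highest was Rplp1, an acidic stalk protein that recruits translation factors, with 3585 RPKM in CCND2mut, 2392 RPKM in CCND2wt and 2511 RPKM in Vec. Rplp0, the base of that stalk, followed with 1967 RPKM in CCND2mut, 1240 RPKM in CCND2wt and 1341 RPKM in Vec, and Rps3a1, a small subunit protein, with 1756 RPKM in CCND2mut, 1126 RPKM in CCND2wt and 1443 RPKM in Vec. The lowest were Rpl3l, Rps10 and Rpl24, each under 5 RPKM in all 3 groups; the last 2 are discussed below with the genes that share a span with another gene model. Between libraries of 1 group the members varied less than tested genes in general: the median coefficient of variation was 9.83% for members and 22.7% for all tested genes in CCND2mut, 4.53% and 8.47% in CCND2wt, and 11.5% and 20.3% in Vec. The members also have more counts than most genes, and the part of depth in this was not tested.

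Marrow labelled CCND2mut had higher levels of 44 of the 84 tested ribosomal protein genes than marrow labelled Vec. These were 52.4% of the members, with 2 others called lower and 38 not called, while of all tested genes 24.9% were called higher, 26.9% lower and 51.8% in either direction. The share of members called in either direction, 54.8%, was thus near that of all genes, and the direction was uneven: 76 of the 84 fold changes were above 0. The median member stood at 0.39 and the median tested gene at -0.03. Among the 957 tested genes that averaged 200 CPM or more, 319 were called higher and 260 lower, with a median of 0.07. The groups did not overlap for 57 members, 53 higher in CCND2mut and 4 lower. Of all tested genes 56.7% had groups that did not overlap, 27.4% higher and 29.2% lower. Large subunit genes (27 of 50 higher, 2 lower, median 0.37) and small subunit genes (16 of 33 higher, 0 lower, median 0.40) gave similar counts. For small subunit genes called lower, DESeq2 and limma-voom also gave 0. By unadjusted p under 0.05, edgeR gave 0 lower, DESeq2 2 and limma-voom 1. When Vec and CCND2mut were fitted without CCND2wt, 27 members were called higher, and 2953 of all 14796 genes tested in that fit (20%).

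In the large subunit the largest increases over Vec were those of 4 genes. Rpl8 (ENSMUSG00000003970; chromosome 15, 76904078 to 76906314 in mm10), whose protein lies by the peptidyl transferase centre, had 2828, 2739 and 2607 CPM in CCND2mut, 927, 980.3 and 948 CPM in CCND2wt, and 1069, 1145 and 1119.6 CPM in Vec. The 3 CCND2mut libraries lay far above the other 6, and the difference from Vec was 1.29 (SE 0.10, adjusted p = 4.41e-05). Rpl37 (ENSMUSG00000041841; chromosome 15, 5116645 to 5119140), a small zinc-binding protein of the large subunit, had 811, 938 and 722 CPM in CCND2mut, 277, 287 and 312 CPM in CCND2wt, and 321, 414 and 329 CPM in Vec, a difference from Vec of 1.22 (SE 0.15, adjusted p = 0.00029). Rpl32 (ENSMUSG00000057841; chromosome 6, 115805505 to 115808747), another large subunit protein, had 2100.5, 2045 and 1780.4 CPM in CCND2mut, 696, 739 and 714 CPM in CCND2wt, and 850.3, 1098 and 843 CPM in Vec (1.09, SE 0.14, adjusted p = 0.00037). Rpl30 (chromosome 15, 34440505 to 34443640), which contacts the small subunit across the subunit interface, had 685, 722 and 682 CPM in CCND2mut, 267, 399.5 and 285 CPM in CCND2wt, and 328, 378 and 355 CPM in Vec (0.98, SE 0.16, adjusted p = 0.00125). For each of these 4 genes every CCND2mut library lay above every other library. Rps19bp1 (chromosome 15, 80260615 to 80264315), the binding partner of Rps19, had 34.3, 27.5 and 34.0 CPM in CCND2mut, 13.4, 12.9 and 15.2 CPM in CCND2wt, and 10.7, 13.0 and 14.8 CPM in Vec (1.31, SE 0.17, adjusted p = 0.000419).

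In the small subunit the largest difference from Vec was that of Rps27l. Rps27l (ENSMUSG00000036781; chromosome 9, 66946086 to 66949516) is a paralog of Rps27 known as a target of p53. It had 121, 123 and 134 CPM in CCND2mut, 73.9, 75.4 and 78.0 CPM in CCND2wt, and 52.3, 55.6 and 54.7 CPM in Vec. None of the 3 groups overlapped, and the difference of CCND2mut from Vec was 1.22 (SE 0.09, adjusted p = 3.27e-05), the smallest adjusted p among the members. Rps2, at the mRNA entry channel, averaged 2141 ± 80.4 CPM in CCND2mut, 1050 ± 13.0 CPM in CCND2wt and 1233 ± 88.4 CPM in Vec (0.80 against Vec, SE 0.10, adjusted p = 0.000431). Among other members with the smallest adjusted p, the differences from Vec were 0.82 for Rpl41, a very short peptide at the subunit interface, 0.76 for Rpl35a and 0.62 for Rpl29. All 3 lay higher in every CCND2mut library than in any Vec library.

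**Figure D2:**
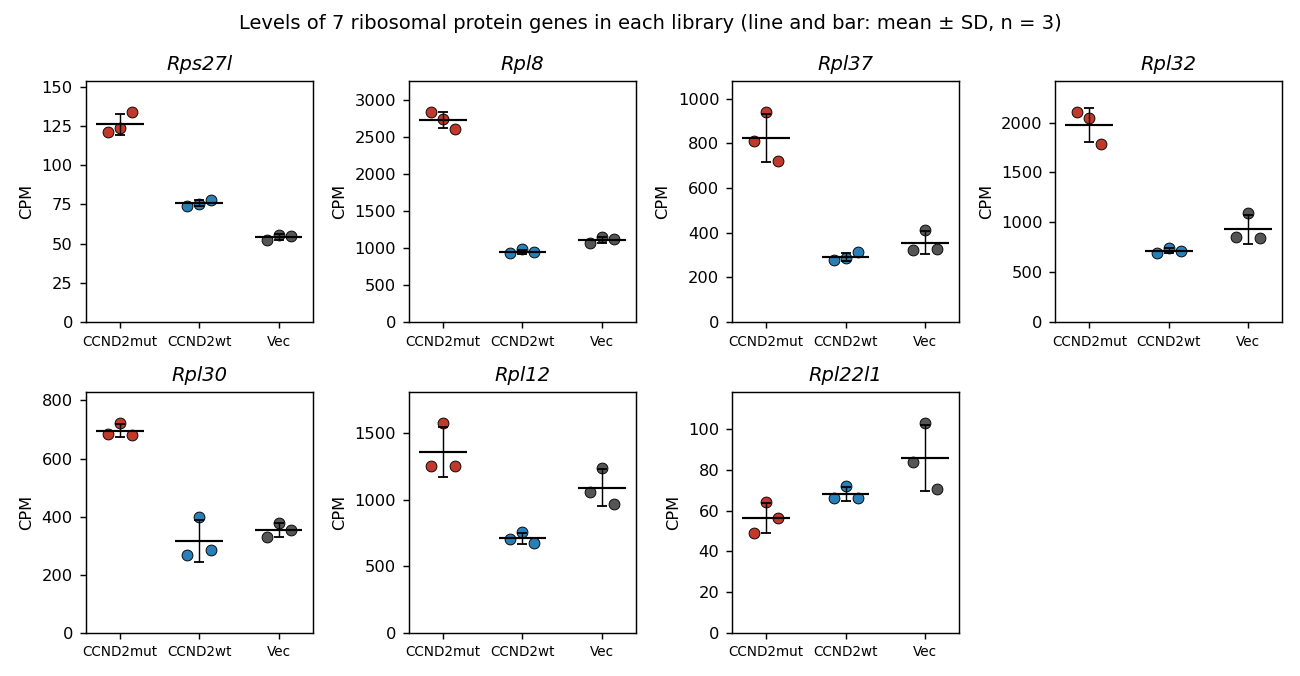
CPM of 7 ribosomal protein genes in each library of CCND2mut, CCND2wt and Vec, with the mean (line) and SD (bar) of 3 libraries; each axis starts at 0 and has its own scale. Rpl8, Rpl37, Rpl32, Rpl30 and Rps27l are highest in CCND2mut, Rpl12 is lowest in CCND2wt, and Rpl22l1 is lowest in CCND2mut.

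Only Rpl22l1 and Rpl24 were called lower in CCND2mut than in Vec in the model of all 9 libraries. Rpl22l1 (ENSMUSG00000039221; chromosome 3, 28805436 to 28807424), a paralog of the RNA-binding protein Rpl22, had 48.9, 64.1 and 56.4 CPM in CCND2mut, 66.2, 72.3 and 66.2 CPM in CCND2wt, and 84.2, 103 and 70.6 CPM in Vec. CCND2mut lay below both other groups, and the difference from Vec was -0.61 (SE 0.16, adjusted p = 0.0115). Rpl24 had 2.43, 1.94 and 1.99 CPM in CCND2mut, 2.65, 2.78 and 3.03 CPM in CCND2wt, and 3.62, 6.32 and 3.01 CPM in Vec, a difference from Vec of -1.02 (SE 0.33, adjusted p = 0.0294). With 453 counts over the 9 libraries, Rpl24 passed through few reads, and it was no longer called without CCND2mut 2, CCND2mut 3, Vec 2 or any single CCND2wt library. Rps24, Rps9, Rpl17, Rpl21 and Rpl10a, all of high level, had values of -0.34, -0.25, -0.16, -0.07 and -0.01 that were not called. Of the 83 tested members other than Rps19bp1, 70 lay within 0.5 of their median of 0.38, 7 lay above this range and 6 below. Whether the members share 1 common shift was not tested.

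**Figure D3:**
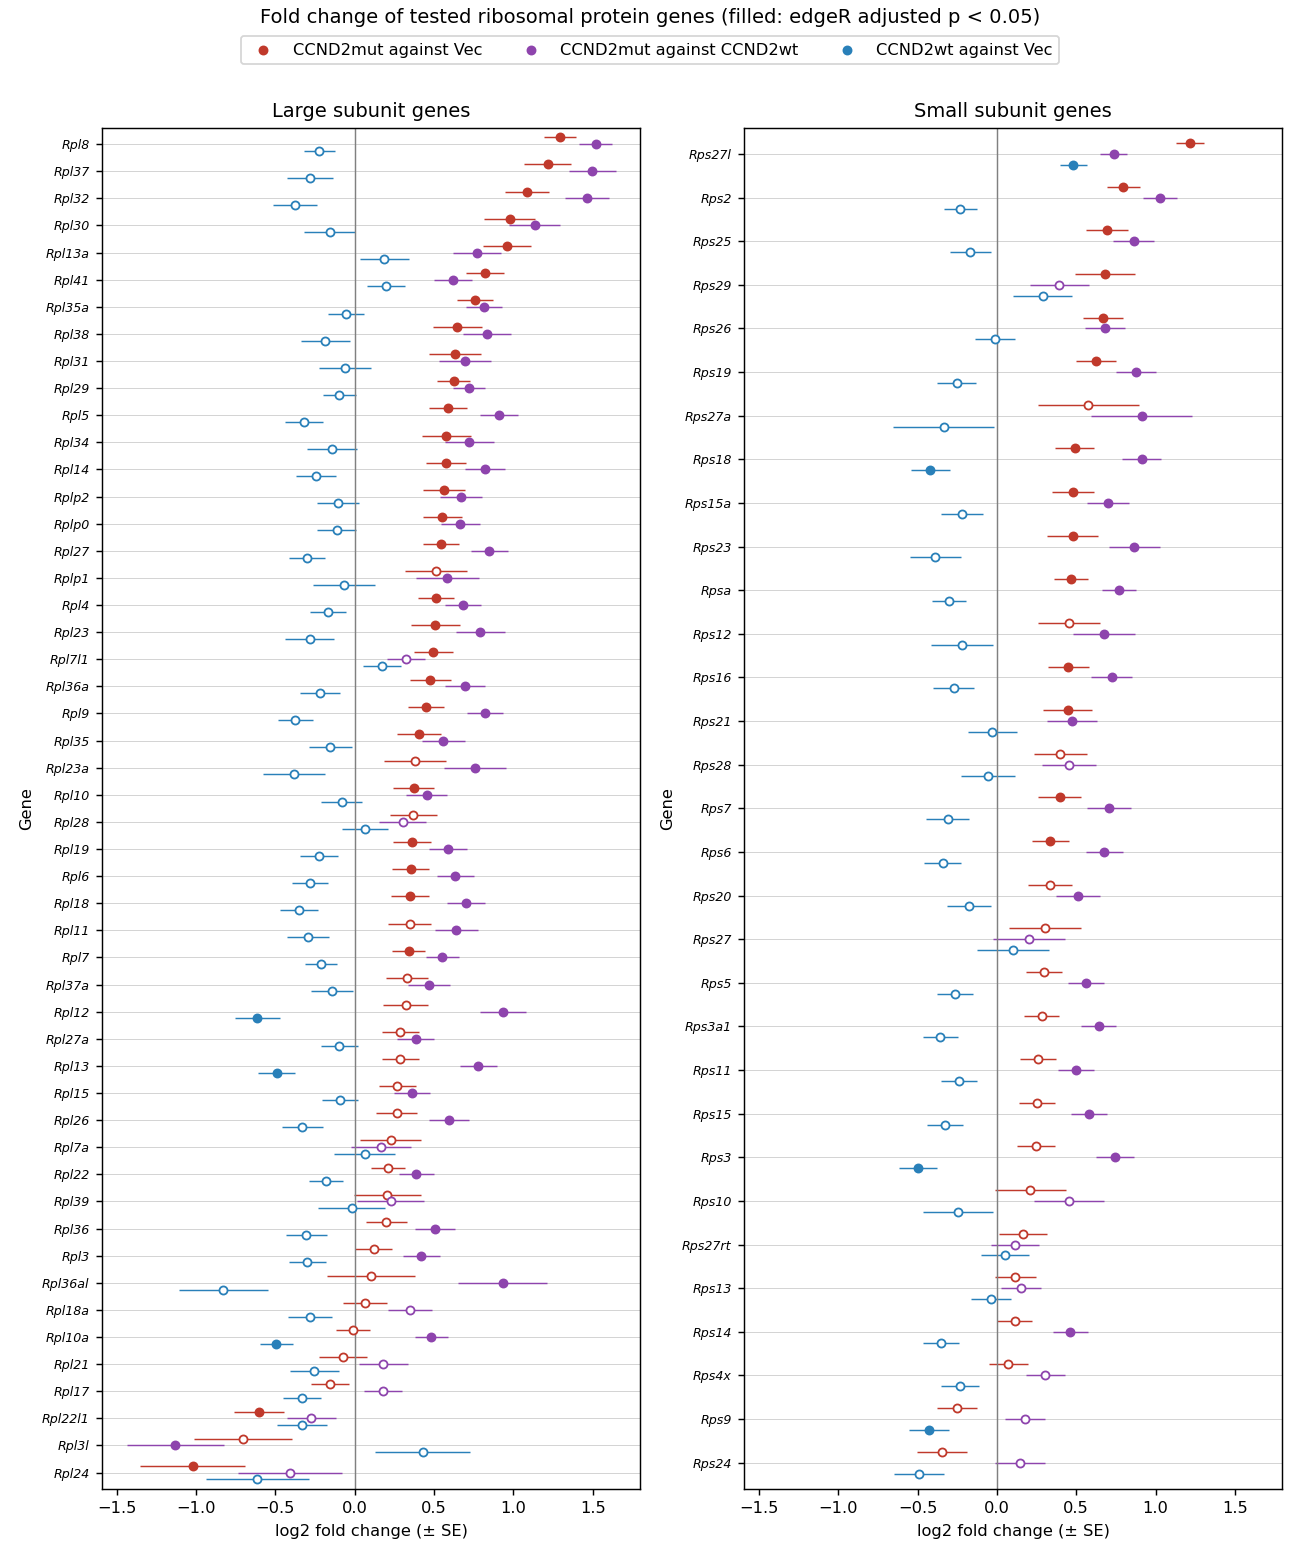
Log2 fold change (point) and SE (bar) of tested ribosomal protein genes for CCND2mut against Vec, CCND2mut against CCND2wt, and CCND2wt against Vec, with large subunit genes on the left, small subunit genes on the right, and filled points for an edgeR adjusted p under 0.05. Most points for CCND2mut lie right of 0 and most for CCND2wt against Vec left of it, and for CCND2mut against CCND2wt Rpl8, Rpl37 and Rpl32 lie farthest to the right; Rps19bp1 and 2 other genes are not drawn.

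Members with large differences shared chromosomes whose other genes also differed, a comparison chosen after the values were seen. Medians were taken over genes that are not members and averaged 5 CPM or more. For CCND2mut against Vec, the median of 431 other genes on chromosome 15 was 0.66 and that of 541 other genes on chromosome 6 was 0.45, while every other chromosome lay between -0.16 and 0.12. Chromosome 15 holds Rpl8, Rpl37, Rpl30, Rps19bp1 and Rpl3, and chromosome 6 holds Rpl32. In a window of 10 Mb centred on the member, the median of other genes was 0.60 by Rpl8 (131 genes), 0.44 by Rpl37 (21 genes), 0.71 by Rpl30 (30 genes) and 0.62 by Rpl32 (59 genes). Each median was below the value of the member itself. Rpl3, which lines the entrance to the peptidyl transferase centre, stood at 0.12 (adjusted p = 0.412) against 0.63 for its 154 neighbours. Without chromosomes 6 and 15, 39 of 78 members were called higher and 2 lower, with a median of 0.37. For CCND2wt against Vec, the medians of other genes were -0.04 on chromosome 15 and 0.04 on chromosome 6.

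**Figure D4:**
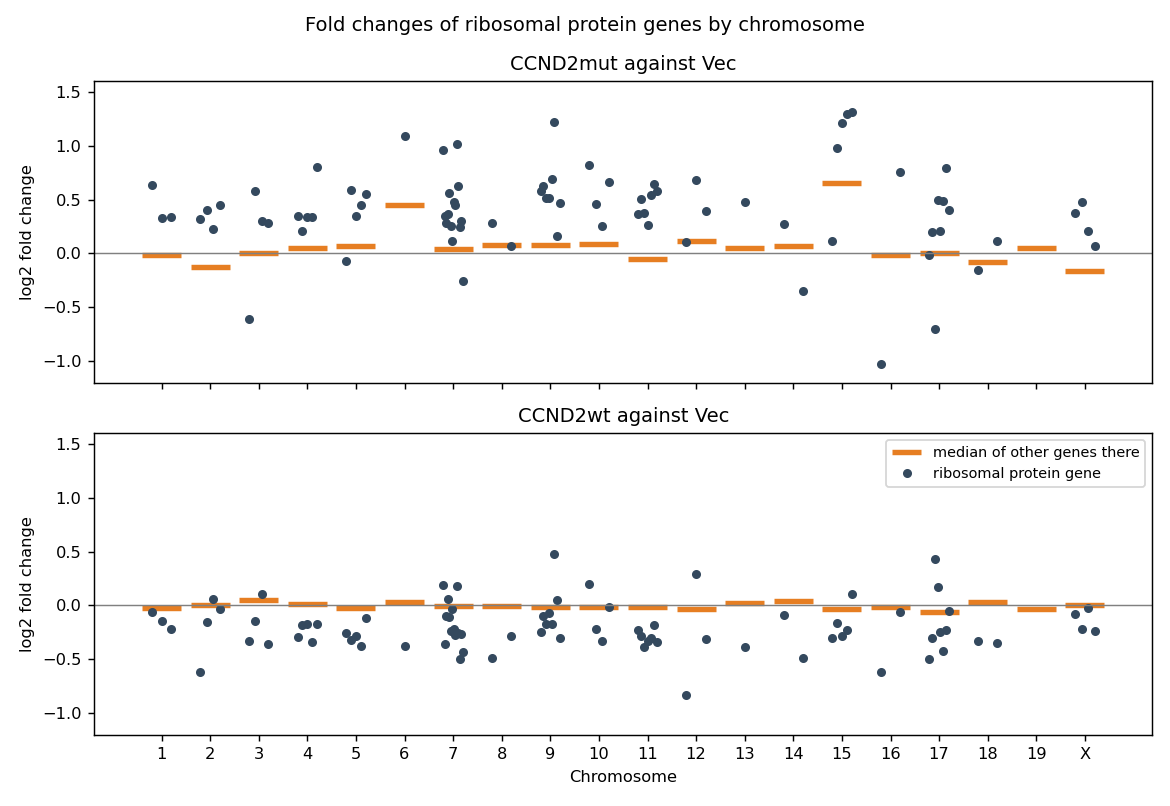
Log2 fold change of each tested ribosomal protein gene (points) by chromosome, for CCND2mut against Vec (top) and CCND2wt against Vec (bottom), with the median of that chromosome's other genes, averaging 5 CPM or more, as a bar. In the top panel the bars of chromosomes 6 and 15 stand at 0.45 and 0.66, and the bars of the other chromosomes lie near 0 while most points lie above them.

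Between marrow labelled CCND2wt and marrow labelled Vec few ribosomal protein genes passed the test. Of the 84 members, 6 were called lower, 1 higher and 77 not, against 9.05% lower, 9.71% higher and 18.8% in either direction among all tested genes. The share of members called was thus under that of all genes, while 72 of 84 values were below 0. The median member stood at -0.23, the median tested gene at -0.04 and the median tested gene that averaged 200 CPM or more at -0.17. Without Vec 2 the median member stood at -0.122, with 22 values above 0, against 12 with all libraries. The groups did not overlap for 45 members, 42 lower in CCND2wt and 3 higher, and for 48.3% of all tested genes, 23.7% lower and 24.6% higher. The calls of lower members did not outlast the loss of a CCND2wt library. edgeR called 0 members lower when CCND2wt 2, 3 or 4 was left out (10, 19 and 7 had an unadjusted p under 0.05 with a lower level), and 1 when Vec 2 was left out. Without CCND2wt 2, 3 or 4 the median member stood at -0.219, -0.267 and -0.207, and 1044, 1194 and 1019 of all genes were called, against 2938 with all libraries. On all 9 libraries, DESeq2 called 22 members and 14.0% of all tested genes lower, and limma-voom 9 members and 9.23% of all tested genes. CCND2wt and CCND2mut were compared with the same Vec libraries, so that the values against Vec are not independent.

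Rpl12 had the largest fall among the members called lower in CCND2wt. It lies at the base of the stalk and had 1249, 1573 and 1251 CPM in CCND2mut, 706, 755 and 671 CPM in CCND2wt, and 1060.04, 1238 and 965 CPM in Vec. The CCND2wt libraries lay below the other 6, and the difference of CCND2wt from Vec was -0.61 (SE 0.14, adjusted p = 0.0209). The other 5 called lower were Rps3 (-0.50) and Rps9 (-0.43), which lie by the mRNA entry channel, Rpl13 (-0.49), Rpl10a (-0.49), which forms the mobile L1 stalk, and Rps18 (-0.42), in the head of the small subunit. Their adjusted p ranged from 0.0152 for Rpl10a to 0.0453 for Rps18. Rps18 was the one member lower in CCND2wt and higher in CCND2mut, each against Vec, with 1707, 1740.2 and 1467 CPM in CCND2mut, 847, 899 and 867 CPM in CCND2wt, and 1095, 1308 and 1094 CPM in Vec. Rps27l was the one member called higher in CCND2wt (0.48, SE 0.09, adjusted p = 0.00802). It was also called without each single library, but not with the replicate number as a block, nor with the CCND2wt libraries summed to 1 sample. Rpl36al had the lowest value of all members in CCND2wt against Vec, -0.83 (SE 0.28, adjusted p = 0.0701), from 741 counts in all.

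The difference between the CCND2 groups was the most one-sided of the 3 comparisons by counts. For CCND2mut against CCND2wt, 65 of 84 members were called higher, 1 lower and 18 not, and 48 of the 65 lay more than 1.5-fold higher. Of the 3633 tested genes called higher in all, 3005 lay more than 1.5-fold higher. Among all tested genes, 23.2% were called higher, 23.8% lower and 47.0% in either direction. The median member stood at 0.65 and the median tested gene at 0.02, and the median of genes that averaged 200 CPM or more was 0.21. The groups did not overlap for 76 members, 73 higher in CCND2mut and 3 lower. Of all tested genes 63.1% had groups that did not overlap, 30.9% higher and 32.2% lower. Large subunit genes (40 of 50 higher, 1 lower, median 0.64) and small subunit genes (24 of 33 higher, 0 lower, median 0.68) gave similar values again. DESeq2, limma-voom and unadjusted edgeR p-values also gave 1 lower for the large subunit and 0 for the small subunit. Leaving out any 1 library left 51 to 66 members called higher. With the 3 CCND2wt libraries summed to 1 sample, which assumes that this sample varies like those of the other groups, edgeR called 7 higher and 0 lower (47 and 0 by unadjusted p).

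The 4 large subunit genes highest against Vec were also the highest subunit genes here, and CCND2mut is in both comparisons. Rps27l stood at 0.73. Rpl8 stood at 1.52 (SE 0.10, adjusted p = 2.36e-05), Rpl37 at 1.497 (SE 0.15, adjusted p = 0.000118), Rpl32 at 1.46 (SE 0.14, adjusted p = 1e-04) and Rpl30 at 1.13 (SE 0.16, adjusted p = 0.000633). On chromosomes 15 and 6 the medians of other genes were 0.69 and 0.41, and without both chromosomes 59 of 78 members were called higher and 1 lower, with a median of 0.64. Other members stood lower, among them Rps2 at 1.03, Rpl12 at 0.93, Rps18 at 0.91 and Rpl5 at 0.91, all called, while Rps19bp1 stood at 1.21. Rpl3l was the one member called lower. It replaces Rpl3 in ribosomes of skeletal muscle and heart in mouse, and had 2.31, 1.40 and 2.72 CPM in CCND2mut, 4.23, 5.55 and 4.35 CPM in CCND2wt, and 3.26, 3.40 and 3.85 CPM in Vec. The CCND2mut libraries lay lowest, and the difference from CCND2wt was -1.13 (SE 0.31, adjusted p = 0.015), not called without CCND2wt 3.

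Across the 3 groups, 65 members had their highest mean in CCND2mut and their lowest in CCND2wt, and 11 had the order CCND2mut, CCND2wt, Vec from high to low. The 3 CCND2mut libraries lay above all 6 others for 53 members and below them for 3, and the 3 CCND2wt libraries lay below all 6 others for 40. These counts were not made over all tested genes. Between 2 groups, 48.3 to 63.1% of all tested genes did not overlap, depending on the comparison. The most frequent pattern of calls, in 40 members, was higher in CCND2mut against both other groups with no call between CCND2wt and Vec. In 20 members only the comparison of CCND2mut with CCND2wt passed, 19 higher and Rpl3l lower, and in 13 none did. Rps27l and Rps18 were called in all 3 comparisons; the mean of Rps27l was lowest in Vec and that of Rps18 lowest in CCND2wt.

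Members with known roles outside or at the edge of the ribosome were described by role. In the stalk, Rplp0 had 3135, 3679 and 2977 CPM in CCND2mut, 2045, 2147 and 1980.25 CPM in CCND2wt, and 2188, 2404 and 2084 CPM in Vec, and was called higher in CCND2mut against Vec (0.55, SE 0.12, adjusted p = 0.00587). Rplp1 had 1326, 2377 and 1665 CPM in CCND2mut, 1176, 1255 and 1148 CPM in CCND2wt, and 1291, 1282 and 1186 CPM in Vec. The CCND2mut libraries of Rplp1 lay above all others but were spread widely, and the difference from Vec was not called (0.51, SE 0.20, adjusted p = 0.0542). Rplp2 was called higher against Vec (0.56, SE 0.13), and all 3 stalk genes were called higher in CCND2mut against CCND2wt, at 0.58 to 0.67. Rpsa, also known as the laminin receptor precursor, had 2732 ± 162 CPM in CCND2mut, 1603 ± 68.5 CPM in CCND2wt and 1978 ± 93.6 CPM in Vec (SD, n = 3 each), and was higher in CCND2mut against Vec by 0.47 (adjusted p = 0.00654 in edgeR).

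Rpl5 and Rpl11 bind 5S rRNA and, when free of the ribosome, bind and inhibit Mdm2, the ubiquitin ligase of p53. Rpl5 had 1521, 1839 and 1499.9 CPM in CCND2mut, 839, 915 and 837 CPM in CCND2wt, and 1037, 1139 and 1064 CPM in Vec, and was called higher in CCND2mut against Vec (0.59, SE 0.12, adjusted p = 0.00382). Rpl11 had 979, 832 and 774 CPM in CCND2mut, 549, 549.5 and 561 CPM in CCND2wt, and 628, 782 and 626 CPM in Vec. CCND2mut 3 lay below Vec 2 for Rpl11, and the difference from Vec was not called (0.34, SE 0.13, adjusted p = 0.0591). Both genes were called higher in CCND2mut against CCND2wt, at 0.91 and 0.64, and edgeR called neither between CCND2wt and Vec. DESeq2 called Rpl5 lower in CCND2wt than in Vec (adjusted p = 0.0457), and it called Rpl11 higher in CCND2mut than in Vec (adjusted p = 0.038), as did limma-voom (adjusted p = 0.047).

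Of the 18 members whose human genes are mutated in Diamond-Blackfan anaemia, 11 were called higher in CCND2mut against Vec, 13 in CCND2mut against CCND2wt and 0 in CCND2wt against Vec, with 0 lower in each by edgeR. In CCND2wt against Vec, 0 had an unadjusted p under 0.05 for a higher and 5 for a lower level, DESeq2 called 0 higher and 4 lower, and limma-voom called 0. These shares, 61.1%, 72.2% and 0%, stood beside 52.4%, 77.4% and 1.19% of all members called higher. Rps19, the gene most often mutated in that disease, had 1392, 1549.6 and 1256 CPM in CCND2mut, 741, 794 and 749 CPM in CCND2wt, and 878, 1008 and 836 CPM in Vec. Every CCND2mut library of Rps19 lay above every other library, and it differed from Vec by 0.63 (SE 0.12, adjusted p = 0.00334). Rps14, which is lost with one copy in the human 5q- syndrome, had 1311, 1408 and 1203 CPM in CCND2mut, 933, 1013 and 900.2 CPM in CCND2wt, and 1204, 1276 and 1149.9 CPM in Vec, and was called only in CCND2mut against CCND2wt (0.46, SE 0.11, adjusted p = 0.00917). Rps6, the target of the S6 kinases, was higher in CCND2mut against Vec by 0.34 (SE 0.12, adjusted p = 0.0389) and against CCND2wt by 0.68 (SE 0.12, adjusted p = 0.0018).

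Of the 4 X-linked members, Rpl10 and Rpl36a were called higher in CCND2mut against Vec (0.37 and 0.48) and against CCND2wt (0.45 and 0.69). Rps4x stood at 1328, 1556 and 1223 CPM in CCND2mut, 1101, 1166 and 1055 CPM in CCND2wt, and 1254, 1335 and 1315 CPM in Vec, with no call by edgeR in any comparison; DESeq2 called it higher in CCND2mut against CCND2wt (adjusted p = 0.0442). Rpl39 was called by none of edgeR, DESeq2 and limma-voom. Rps27a, which is made as a fusion with ubiquitin, had 598, 789 and 637 CPM in CCND2mut, 512, 269 and 294 CPM in CCND2wt, and 278, 561 and 518 CPM in Vec. The CCND2wt and Vec libraries of Rps27a overlapped and each held 1 library far from the other 2. It was called higher in CCND2mut against CCND2wt (0.91, SE 0.32, adjusted p = 0.0444) and not against Vec (0.58, SE 0.32, adjusted p = 0.159).

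The ratio of some paralogs to their parent genes did not overlap between groups. The ratio of counts of 5 paralogs to their parents was compared in 15 two-sided exact permutation tests. With 3 against 3 libraries such a test cannot give a p below 0.1. In 9 of the 15 the groups did not overlap and this p was reached, and all had an adjusted p of at least 0.1667. The levels of 48.3% of all tested genes did not overlap in CCND2wt against Vec. The share was 56.7% in CCND2mut against Vec and 63.1% in CCND2mut against CCND2wt. Ratios of other gene pairs were not taken. Rpl22l1 counts were 10.3, 13.8 and 13.4% of those of Rpl22 in CCND2mut, 19.5, 20.9 and 18.7% in CCND2wt, and 23.3, 23.8 and 18.4% in Vec. CCND2mut lay below both other groups, by 0.81 against Vec and 0.67 against CCND2wt on the log2 scale (differences of -0.81 and -0.67, exact permutation p = 0.1 each). Rpl22 itself had higher mean CPM in CCND2mut than in Vec without a call (0.21, adjusted p = 0.137), so that the members of this pair had opposite signs. In mouse, Rpl22 is known to hold down Rpl22l1 expression.

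Rps27l counts were 24.6, 17.25 and 25.45% of those of Rps27 in CCND2mut, 15.3, 13.3 and 17.0% in CCND2wt, and 9.48, 10.5 and 16.9% in Vec. CCND2mut lay above both other groups, by 0.89 against Vec and 0.55 against CCND2wt on the log2 scale (exact permutation p = 0.1 each), while CCND2wt and Vec overlapped (0.35, exact permutation p = 0.3). Rps27 itself had no call in any comparison, with 494, 715 and 525 CPM in CCND2mut, 482, 568 and 458 CPM in CCND2wt, and 552, 528 and 324 CPM in Vec. The ratio of Rpl3l to Rpl3 was under 1% in every library, and its log2 value differed by -0.88 in CCND2mut against Vec, -1.59 in CCND2mut against CCND2wt and 0.72 in CCND2wt against Vec (exact permutation p = 0.1 each). For Rpl7l1 to Rpl7 and Rpl36al to Rpl36a the only groups that did not overlap were CCND2wt and Vec, at 0.39 and -0.59 (exact permutation p = 0.1 each).

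**Figure D5:**
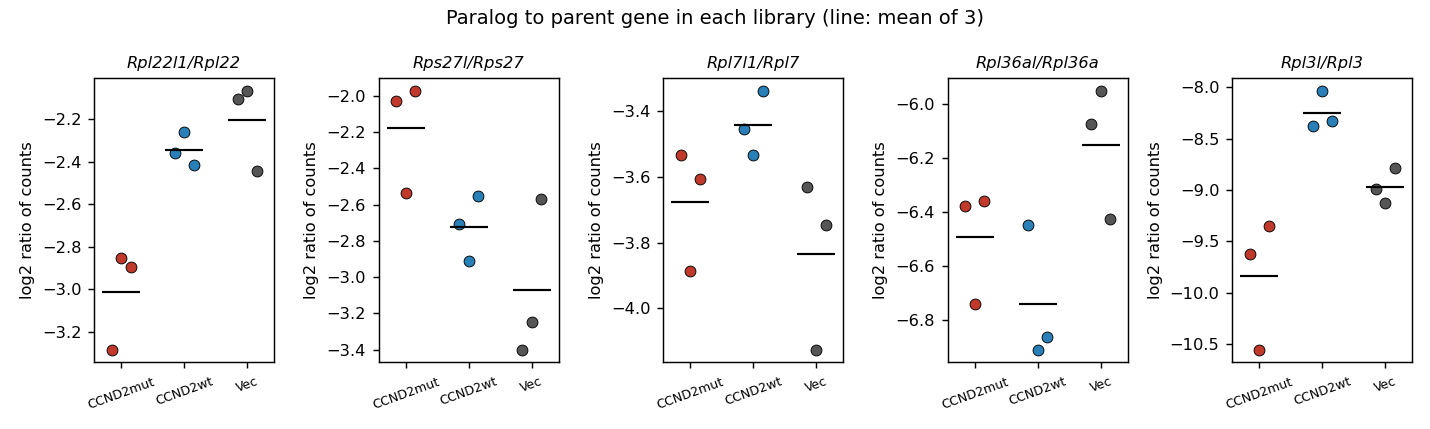
Log2 ratio of the counts of a paralog to those of its parent gene in each library of CCND2mut, CCND2wt and Vec for 5 pairs, with the mean of 3 libraries as a line; each panel has its own scale. CCND2mut is lowest for Rpl22l1 to Rpl22 and Rpl3l to Rpl3 and highest for Rps27l to Rps27.

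Some members were hard to count. Rpl39l and Rpl10l, paralogs known from mouse testis, had 0 counts in all 9 libraries, which allows up to 3 counts, or 0.159 to 0.204 CPM, per library; such limits cover counting error only. Rpl13a, Rpl24, Rpl36al and Rps10, all of them core proteins or a near copy of one, had 6692, 453, 741 and 901 counts in all, where each of the 74 abundant members averaged 283 CPM or more. Each of these 4 shares its strand and span with a gene model that stood at 0 counts in every library, among them Gm45713 for Rpl13a and Gm28037 for Rpl24. Their levels and fold changes are therefore uncertain, and that includes the call of Rpl24 and that of Rpl13a, which was higher in CCND2mut against Vec (0.96, SE 0.15, adjusted p = 0.00108). Rpl13 also shares a span with such a model but had 214071 counts. Pseudogene entries exist for 60 members, and their counts were 3.74 to 4.19% of the member counts in each library. They exceeded the counts of Rps10 (3576%) and Rpl17 (119.6%), and 12 members had over 10%. With pseudogene counts added to their members, 46 members were called higher in CCND2mut against Vec and 68 against CCND2wt, and 7 lower in CCND2wt against Vec.

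Other genes of translation were counted from lists chosen with earlier results of these data known. Of all tested genes, 24.9% were called higher and 26.9% lower in CCND2mut against Vec. The shares were 9.71% and 9.05% in CCND2wt against Vec, and 23.2% and 23.8% in CCND2mut against CCND2wt. In CCND2mut against Vec, 74.3% of initiation factors and 45.7% of biogenesis genes were called in either direction, beside 51.8% of all tested genes. Of 35 initiation factors, 24 were called higher and 2 lower in CCND2mut against Vec (median 0.52), 2 higher and 1 lower in CCND2wt against Vec (-0.02), and 22 higher and 1 lower in CCND2mut against CCND2wt (0.49). Eif3h, a subunit of eIF3, had 507, 514 and 501 CPM in CCND2mut, 241, 233 and 236 CPM in CCND2wt, and 214, 223 and 205 CPM in Vec (1.25 in CCND2mut against Vec, SE 0.09, adjusted p = 3.33e-05). Eif3h, Eif3l (1.29) and Eif3d (1.10), the 3 initiation factors with the smallest adjusted p, all lie on chromosome 15. Of 46 genes of ribosome biogenesis and RNA polymerase I, 21 were called higher in CCND2mut against Vec (median 0.42), 2 lower in CCND2wt against Vec (-0.11) and 31 higher in CCND2mut against CCND2wt (0.59), with no others called by edgeR. DESeq2 called 1 lower in CCND2mut against Vec and 3 lower in CCND2wt against Vec. Nhp2, a core protein of H/ACA small nucleolar particles, and Rrs1, which assists the 5S particle, had the smallest adjusted p in CCND2mut against Vec, with values of 1.43 and 1.40. Polr1a, the largest subunit of RNA polymerase I, lies on chromosome 6 and stood at 2.11 in CCND2mut against CCND2wt.

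Of 10 elongation and termination factors, 4 were called higher and 1 lower in CCND2mut against Vec (median 0.39), 2 lower in CCND2wt against Vec (-0.22), and 7 higher in CCND2mut against CCND2wt (0.54), with no others called by edgeR. The share called in either direction in CCND2mut against Vec, 50%, was near the 51.8% of all tested genes. The 2 lower in CCND2wt were Eef1g (-0.48) and Eef1b2 (-0.42), subunits of the factor that recharges eEF1A. Of 19 other genes known to have TOP mRNAs, 13 were called higher and 2 lower in CCND2mut against Vec (0.42), 1 higher and 2 lower in CCND2wt against Vec (-0.11), and 14 higher and 1 lower in CCND2mut against CCND2wt (0.56). In CCND2mut against Vec, 78.9% of these 19 were called in either direction. Fau stood at 0.42 (adjusted p = 0.0177) in CCND2mut against Vec. Noncoding host genes of small nucleolar RNAs, whose transcripts also start with a TOP tract, had few calls. Of 7, 1 (14.3%) was called higher and 0 lower in CCND2mut against Vec. The one called was Snhg6 (0.92), and the median of the 7 was -0.33. Gas5, the host gene of many such RNAs, stood at -0.53 (adjusted p = 0.155).

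Of 14 regulators of TOP mRNA translation, 3 (21.4%) were higher and 2 (14.3%) lower in CCND2mut against Vec, both shares under the 24.9% and 26.9% of all tested genes; 0 were called in CCND2wt against Vec by edgeR, DESeq2 or limma-voom (1 had an unadjusted edgeR p under 0.05), and 5 were higher and 4 lower in CCND2mut against CCND2wt. Eif4ebp1, which encodes the translation repressor 4E-BP1 that mTORC1 inactivates, had 62.4, 99.8 and 89.5 CPM in CCND2mut, 20.8, 22.1 and 22.9 CPM in CCND2wt, and 32.2, 27.4 and 29.8 CPM in Vec. The CCND2mut libraries lay above all others, by 1.49 against Vec (SE 0.17, adjusted p = 0.000232) and 1.93 against CCND2wt (SE 0.18, adjusted p = 7.94e-05). Tsc1, an inhibitor of mTORC1, and Rptor, a subunit of it, were lower in CCND2mut against Vec, at -0.64 and -0.43. Of 16 ribosome-associated folding, recycling and rescue factors, 8 were higher and 1 lower in CCND2mut against Vec, 2 higher in CCND2wt against Vec, and 7 higher and 1 lower in CCND2mut against CCND2wt. The share called in either direction in CCND2mut against Vec was 56.2%, beside 51.8% of all tested genes. Serbp1, which occupies idle ribosomes, stood at 1.08 in CCND2mut against Vec, and Map3k20, a kinase that senses stalled ribosomes, was the one called lower (-0.94).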

How the data were processed

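The authors deposited 1 table of raw read counts per gene for 9 libraries. Per the labels' protocols, RNA came from a TRIzol extraction and libraries from the NEBNext Ultra kit. The submitters' processing notes name CASAVA 1.8, fastp, HISAT2 2.0.5, featureCounts 1.5.0-p3, DESeq2 1.20.0 and the build mm10. The sources used here do not give the annotation release, strand setting or handling of multiply mapping reads. Therefore counts of members with close copies, overlapping or antisense genes are uncertain. Of the members, 49 overlap another gene, 35 on the same strand and 23 on the other. Samples were joined to groups by title, and 0 count columns were left over. All 86 member names matched RefSeq symbols.

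Of 54532 genes, 30980 had a read and 15660 passed filterByExpr. The quasi-likelihood test of edgeR 4.0.16 (R 4.3.3) was run on all 9 libraries together, with TMM factors, a robust fit and 6 residual degrees of freedom. Standard errors are the log2 fold change over the root of its F. The model was run on simulated counts in which each gene had the same spread in all 3 groups. In these data the CCND2wt libraries lay closer together than the others, so that the simulation cannot show how the shared spread acts here. Members and lists were chosen with earlier results of these data known. Named members are up to 12 per direction with the smallest adjusted p, a fixed set of role genes, and the 3 highest and 3 lowest per length. For other lists up to 4 genes are named, and only some of all these are used. Rps24, Rps9, Rpl17, Rpl21, Gas5 and the chromosome medians were picked after their values were seen, as were Rpl13a and Rpl17 for the counting limits. Alternatives were RLE factors, TMM factors without the members, no haemoglobin, immunoglobulin or mitochondrial genes, DESeq2 1.42.0, limma-voom (limma 3.58.1), no filter, at least 5 CPM in 3 libraries, a model of only the 2 groups in question, the replicate number as a block, and each library left out. Added after the data were seen were the CCND2wt libraries summed to 1 sample and members summed with their pseudogenes. The depth of the libraries sets a floor of 3 counts for genes with none. Results of some single genes are not reported here, though the genes stay in the fits and counts.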

Additional observations from a re-analysis of the deposited data

How the results depend on the processing

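Groups of 3 libraries were not tested for outlying samples, and Rpl24, Rpl3l, Rpl36al and Rps10 rest on few reads (453, 521, 741 and 901 counts). In CCND2wt against Vec, 1 member was called higher and 6 lower. The lower count was 22 with DESeq2, 12 with only the 2 groups, and 0 to 7 with 1 library left out; the higher count stayed at 1 when a library was left out. With the CCND2wt libraries summed to 1 sample both counts were 0, as they were with the replicate number as a block. In CCND2mut against Vec, 44 were higher and 2 lower. The higher count was 27 with only the 2 groups and 27 with the block, and 30 to 54 with 1 library left out. The lower count was 1 with no filter, the stricter filter, only the 2 groups and the block, and 1 to 2 with 1 library left out. In CCND2mut against CCND2wt, 65 were higher and 1 lower. The higher count was 7 with CCND2wt summed, 52 with the block and 51 to 66 with 1 library left out. The lower count was 0 with the stricter filter and with CCND2wt summed, and 0 to 1 with 1 library left out. The same-numbered libraries did not deviate together (r of -0.073 to 0.187 over 6 pairs), with 2 over 0.1, and the labels give no meaning to the numbers, so that they were not taken to pair the libraries.

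For the other translation lists together, CCND2wt against Vec had 6 genes called higher and 5 lower. The higher count was 2 with the block, 0 with CCND2wt summed and 1 to 6 with 1 library left out. The lower count was 10 with DESeq2, 1 with no filter, 1 with the block, 0 with CCND2wt summed and 0 to 9 with 1 library left out. CCND2mut against CCND2wt had 76 higher and 8 lower, against 11 and 1 with CCND2wt summed; the lower count was 5 with the block and 5 to 9 with 1 library left out. Summing leaves 1 sample, which lowers the number of calls by construction: over all genes the calls fell to 39 in CCND2wt against Vec, against 2938 with 3 libraries, and to 2378 in CCND2mut against CCND2wt, against 7360, of which 33.8% were higher, against 49.4%. In CCND2wt against Vec all genes called numbered 1636 with the block, and 1019, 1044 or 1194 without 1 CCND2wt library.

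TMM factors computed without the members left 44 higher and 2 lower, 1 higher and 6 lower, and 65 higher and 1 lower in the 3 comparisons. The values that changed sign lay between -0.0811 and 0.2252 with all libraries and were never called, and the cause was not tested. Rpl39 in CCND2mut against CCND2wt ranged from -0.0012 to 0.3574 with 1 library left out, and Rps27 from -0.0171 to 0.3008. In CCND2mut against Vec, Rpl36al ranged from -0.1038 to 0.2967 and Rps4x from -0.0385 to 0.1541. In CCND2wt against Vec, Rpl10 ranged from -0.1259 to 0.0242, Rpl39 from -0.1447 to 0.2369 and Rps27 from -0.1018 to 0.2673. Rpl39 there was also 0.0088 with limma-voom, 0.0306 with no filter, 0.0239 with the block and 0.0069 with CCND2wt summed. Paralog ratios kept their sign with each library left out.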
